A study of Mus musculus with 6 samples.

Results

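The genes described here encode the nuclear-encoded subunits of the mitochondrial respiratory chain and of ATP synthase, with cytochrome c and some assembly factors whose symbols share the prefixes. They were measured in the livers of untreated mice at 3 months of age, 3 TLR3-/- and 3 TLR3wt, on 1 oligonucleotide array per mouse. Both groups are given as C57Bl/6 and were bred in-house under specific-pathogen-free conditions, and no mouse received a treatment. TLR3 is the endosomal receptor for double-stranded RNA, and both Tlr3 alleles are inactivated in the TLR3-/- mice by their label. Litter, sex and the construction of the allele are not given in the labels. A gene was taken as a member when its probe set carried exactly 1 symbol that began with Nduf, Uqcr, Atp5 or Cox4 to Cox8, or that was Sdha, Sdhb, Sdhc, Sdhd, Cyc1 or Cycs. This gave 118 probe sets for 91 genes among 19938 genes with such probe sets, and each gene was represented by its probe set of highest mean signal across arrays. Values are log2 RMA signals with a lowest value of exactly 5, and 7 of the 91 genes stood at this floor on all 6 arrays and were left out. The remaining 84 were 34 subunits of complex I, 6 complex I assembly factors, 4 subunits of complex II, 9 of complex III, 12 of complex IV, 17 of complex V, Cycs and the supercomplex factor Cox7a2l. Another 6 probe sets that listed a member together with a second gene were not used.

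Complex I takes electrons from NADH and complex II takes them from succinate, and both pass them to ubiquinone. Complex III hands them on to cytochrome c, and complex IV passes them to oxygen. Complexes I, III and IV pump protons across the inner membrane, and complex V, the ATP synthase, uses that gradient to make ATP. Hepatocytes are rich in mitochondria, and the subunit genes are transcribed in the nucleus under factors such as NRF1, GABPA and the ERR receptors with their PGC-1 coactivators.

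The 6 arrays were close in signal, with a small offset between the groups. From 15081 to 15226 probe sets of an array exceeded the floor. Array medians over the 16639 tested probe sets (log2) were 6.57, 6.56 and 6.54 in TLR3wt livers. In TLR3-/- livers they were 6.59, 6.59 and 6.58, all above the TLR3wt ones. The number of arrays, 3 per group, limits the precision of every value below. Tlr3 itself was at the floor in the livers of both genotypes, so its probe set gave no check of the labels. Alb, the hepatocyte gene of serum albumin, lay between 13.02 and 13.09 on the 6 arrays, and the 13 hepatocyte markers found were all above the floor. Their median log2 difference was -0.04, with 9 of 13 lower in the TLR3-/- livers. None passed limma's adjusted p of 0.05 (smallest 0.187). Of the 13, 2 had an unadjusted p under 0.05, near the 14.5% of all tested probe sets. The groups were apart for 4 of the 13 markers (30.8%, against 20.1% of all tested probe sets). These were Tat, Hnf4a and Apoa1, lower by log2 differences of -0.39, -0.26 and -0.10, and Hpd, with a difference of 0.13. Of 18 markers of macrophages and Kupffer cells above the floor, 17 had lower means in the TLR3-/- livers. None passed limma's adjusted p of 0.05 (smallest 0.0994), and 14 of the 18 had an unadjusted p under 0.05, where 14.5% of all tested probe sets did. The median log2 difference of the 18 was -0.79, against 0.03 over all tested probe sets. Their summed log2 signal was 114 to 123 on the TLR3-/- arrays and 128 to 136 on the TLR3wt arrays, and Cd14, a further marker, was at the floor on all of them. In whole liver, fewer cells of a type and less RNA per cell cannot be told apart, and the part of these markers in the values below was not tested.

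The respiratory chain genes differed little between TLR3-/- and TLR3wt livers. Their log2 differences, TLR3-/- minus TLR3wt, ran from -0.19 for Cox6a2 to 0.27 for Ndufb3, with a median of 0.03, which was also the median over all tested probe sets. Of the 84 genes 0 passed limma's adjusted p of 0.05 (smallest 0.187), where 0.186% of all tested probe sets passed. At an unadjusted p under 0.05 limma gave 2 of the 84, Ndufb9 on the higher side and Cox6a2 on the lower side. Among all tested probe sets 14.5% reached it, 9.21% on the higher and 5.25% on the lower side. The 3 livers of one group lay wholly above the 3 of the other for 7 genes (8.33%), 6 higher and 1 lower in TLR3-/-. Of all tested probe sets 20.1% were apart in this way, 13% on the higher and 7.04% on the lower side, and of those with a mean signal of at least 8, 21.4% were apart. In 82 of the 84 genes limma's 95% interval of the difference stayed within 0.5 on the log2 scale, a 1.41-fold change, in both directions. The exceptions were Ndufb3, with an interval from -0.10 to 0.65, and Ndufs5, with one from -0.52 to 0.17. Over all tested probe sets 79.5% of the intervals stayed within that margin, and 86.2% of those with a mean signal of at least 8. Cox6a2 and Cox7a1, counted among the 82, held values at the floor, so their intervals do not bound the change. The median half-width of the members' intervals was 0.18, and 63 of the 84 intervals stayed within 0.3.

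**Figure D1:**
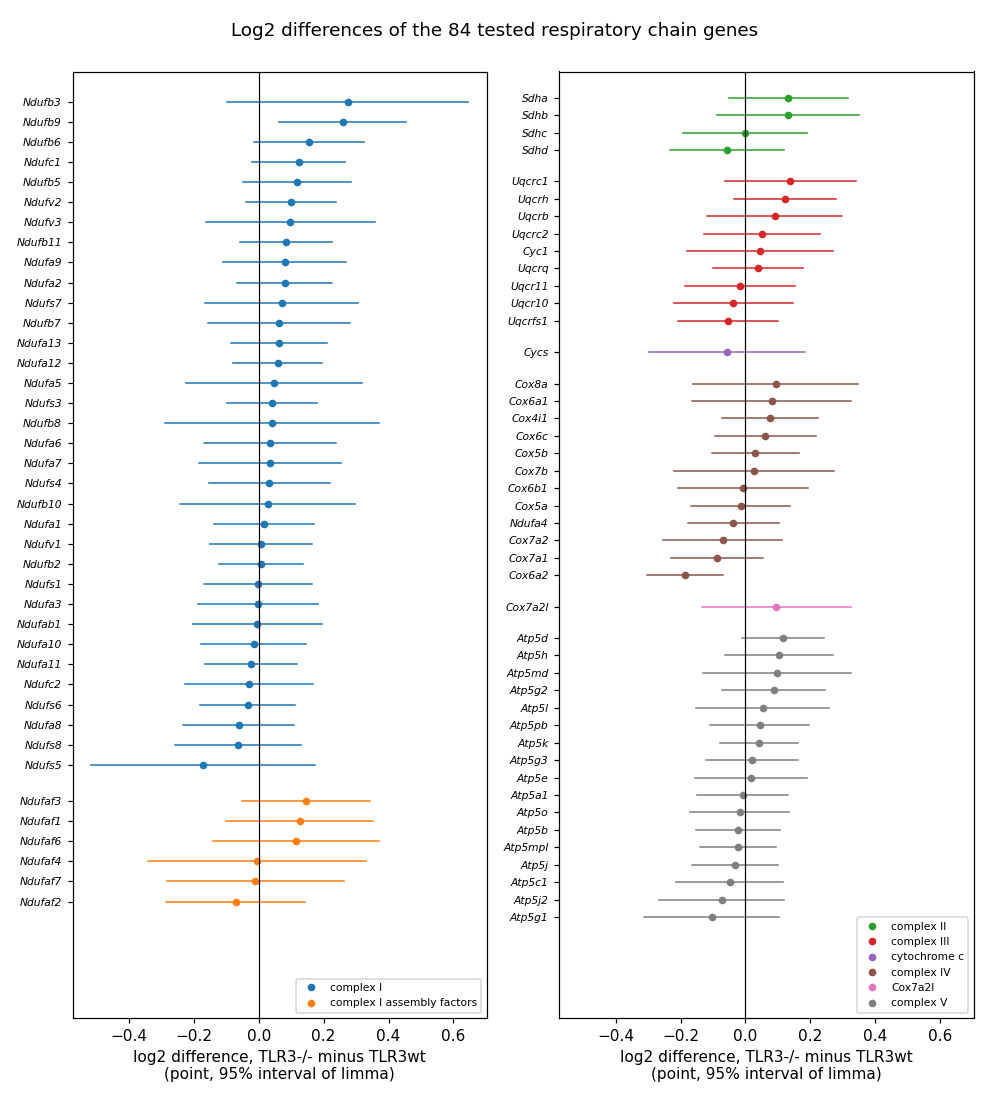
Log2 difference of each of the 84 tested genes (x axis, TLR3-/- minus TLR3wt) with limma's 95% interval as a line, grouped and coloured by complex and ordered by size within each group. The points lie between -0.19 (Cox6a2) and 0.27 (Ndufb3), and the intervals of Cox6a2 and Ndufb9 are the ones that do not cross 0.

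**Figure D2:**
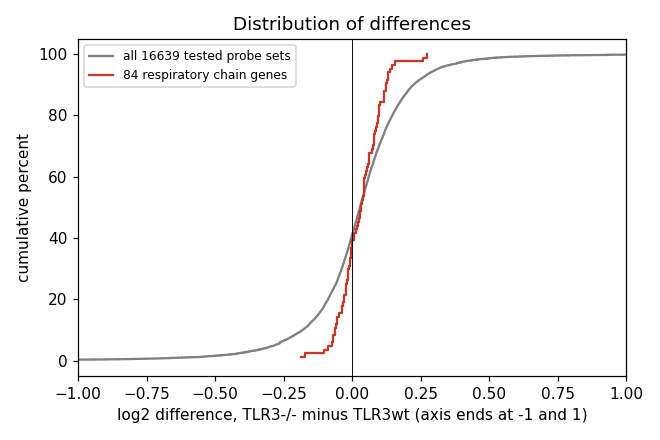
Cumulative percent of genes (y axis) against the log2 difference, TLR3-/- minus TLR3wt (x axis, drawn from -1 to 1), for the 84 respiratory chain genes and for all 16639 tested probe sets. Both curves cross 50% close to 0.03, and the curve of the respiratory chain genes is the steeper one.

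Of the 84 genes 51 had a difference above 0 and 33 below, a share of 60.7% above 0 where all tested probe sets had 58.8%. This split moved with the scaling of the arrays. It was 41 above and 43 below after quantile normalisation was applied again, and 43 above and 41 below with each array centred on its median. By complex, the median log2 difference was 0.04 for complex I (24 of 34 above 0), 0.06 for complex II (2 of 4), 0.04 for complex III (6 of 9), 0.01 for complex IV (6 of 12) and 0.02 for complex V (9 of 17). The medians of complexes IV and V turned negative under both other scalings (-0.03 and -0.01 after quantile normalisation, -0.02 and -0.01 after centring). Those of complexes I, II and III shrank but stayed above 0. They were 0.004, 0.03 and 0.003 after quantile normalisation and 0.006, 0.03 and 0.01 after centring. The array medians of a complex had an SD within a group of 0.03 to 0.11, and differences between complexes were not tested.

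The core subunits of complex I come first, among them those that carry the flavin and the iron-sulfur clusters. Ndufv2, an iron-sulfur protein of the NADH-oxidising module, was 9.12, 9.16 and 9.03 in TLR3wt replicates 1 to 3 and 9.23, 9.19 and 9.18 in TLR3-/- replicates 1 to 3 (log2 signal). The groups did not overlap, but the gap was narrow, and the difference of 0.10 ± 0.06 (SE) did not pass (limma adjusted p = 0.480). Ndufs7, an iron-sulfur subunit near the quinone site, was 8.53, 8.62 and 8.29 in TLR3wt and 8.48, 8.55 and 8.62 in TLR3-/- livers, so that the groups overlapped around a low TLR3wt replicate 3. Ndufs8 and Ndufs3, 2 further core subunits of the arm that faces the matrix, had log2 differences of -0.06 (95% interval -0.26 to 0.13) and 0.04 (-0.10 to 0.18). Ndufs1 and Ndufv1 complete the 6 measured core subunits, with differences of -0.00 and 0.01.

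The other 28 subunits of complex I held 3 of the 7 genes whose groups were apart (10.7% of the 28, against 20.1% of all tested probe sets). Ndufb9, an accessory subunit of the membrane arm, was 8.62, 8.68 and 8.58 in TLR3wt and 8.88, 8.76 and 9.02 in TLR3-/- livers. All 3 TLR3-/- livers lay above all 3 TLR3wt livers, with means of 8.89 ± 0.13 and 8.63 ± 0.05 (SD, n = 3 each). The difference of 0.26 ± 0.08 (SE), or 1.20-fold, had an unadjusted limma p of 0.0175 and an adjusted p of 0.243. Ndufb6, another membrane-arm subunit, was 9.08, 9.12 and 9.04 in TLR3wt and 9.35, 9.14 and 9.22 in TLR3-/- livers. Its groups were separated by the small gap between TLR3wt replicate 2 and TLR3-/- replicate 2 (limma adjusted p = 0.375). Ndufc1, a small membrane-arm subunit, was 8.35, 8.32 and 8.36 against 8.43, 8.42 and 8.55, apart as well, with a difference of 0.12 (limma adjusted p = 0.401). Its second probe set had a difference of 0.04. Ndufb3, also of the membrane arm, had the highest difference of the 84 but overlapping groups, with 6.37, 6.21 and 5.83 in TLR3wt and 6.37, 6.58 and 6.28 in TLR3-/- livers. Here TLR3wt replicate 3 was the low array, and the adjusted p was 0.468 in limma. On the lower side, Ndufs5 was 8.47, 8.41 and 8.16 against 8.26, 8.36 and 7.90, again with overlap (difference -0.17, limma adjusted p = 0.641).

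**Figure D3:**
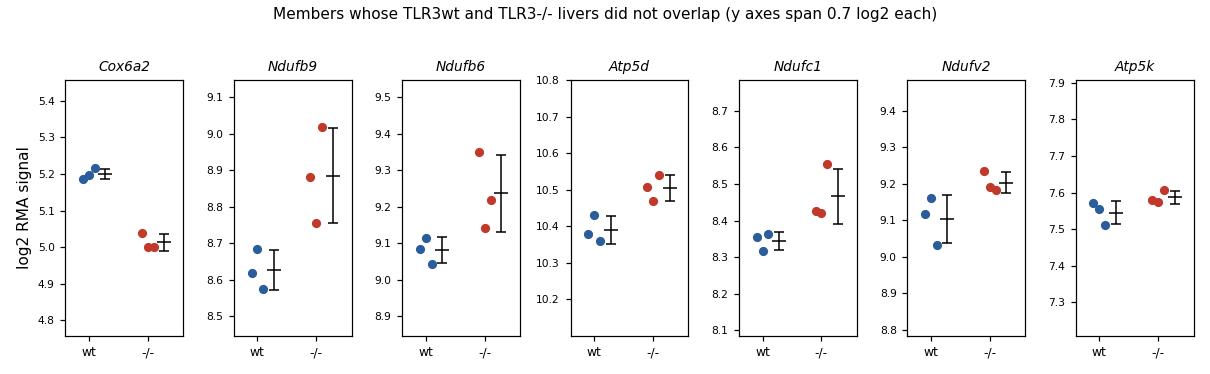
Log2 RMA signal (y axes, of equal span) of the 7 genes whose 3 TLR3wt livers (blue) and 3 TLR3-/- livers (red) did not overlap, with the mean and SD of each group in black. Ndufb9 has the largest difference of means (0.26), Cox6a2 lies at or close to the floor of 5 in the TLR3-/- livers, and Atp5k differs by 0.04.

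The Ndufaf genes encode factors that help to build complex I and are not part of the finished enzyme. Among the 6 measured, the log2 differences ran from -0.07 for Ndufaf2 to 0.15 for Ndufaf3, 3 above 0 and 3 below. Ndufaf3, which works with Ndufaf4 on the matrix-facing arm, was 6.11, 5.89 and 5.97 in TLR3wt and 6.03, 6.18 and 6.21 in TLR3-/- livers (limma adjusted p = 0.471). Ndufaf1, a factor of membrane-arm assembly, and Ndufaf6 had differences of 0.13 and 0.12 with 95% intervals from -0.10 to 0.35 and from -0.14 to 0.37. Ndufaf5 was at the floor on all 6 arrays.

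Complex II is also an enzyme of the tricarboxylic acid cycle, and its 4 subunits are all encoded in the nucleus. Sdha, the flavoprotein that oxidises succinate, was 10.74, 10.73 and 10.55 in TLR3wt and 10.86, 10.73 and 10.82 in TLR3-/- livers. Sdhb, its iron-sulfur partner, was 8.75, 8.71 and 8.52 against 8.85, 8.66 and 8.86. For both, TLR3wt replicate 3 was the lowest of the 6 livers and the groups overlapped, with differences of 0.13 each (limma adjusted p = 0.477 and 0.565). The membrane anchors Sdhc and Sdhd had differences of -0.00 and -0.06, and none of the 4 passed.

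In complex III, Uqcrh, the acidic hinge protein at cytochrome c1, was 8.85, 8.87 and 8.99 in TLR3wt and 9.08, 8.96 and 9.03 in TLR3-/- livers. TLR3wt replicate 3 lay within the TLR3-/- range, and the difference of 0.12 did not pass (limma adjusted p = 0.442). The core protein gene Uqcrc1 was 9.79, 9.80 and 9.61 against 9.84, 9.79 and 9.98 (difference 0.14, limma adjusted p = 0.503). Uqcrb had a difference of 0.09, and the catalytic subunits Uqcrfs1, the Rieske iron-sulfur protein, and Cyc1, cytochrome c1, had differences of -0.05 (95% interval -0.21 to 0.10) and 0.04 (-0.18 to 0.27). Cycs, the mobile cytochrome c that links complexes III and IV, was 9.44, 9.51 and 9.19 in TLR3wt and 9.38, 9.36 and 9.23 in TLR3-/- livers (difference -0.06, limma adjusted p = 0.827).

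Complex IV has several subunits with alternative forms for different tissues, and most of them had a probe set. The forms known from liver and most tissues, Cox4i1, Cox6a1, Cox6b1, Cox7a2 and Cox8a, were above the floor on all 6 arrays, between 7.53 for the lowest array of Cox7a2 and 9.60 for the highest of Cox6b1. The forms known from lung or testis, Cox4i2, Cox6b2, Cox7b2 and Cox8c, were at the floor on every array, as was Cox8b of heart and skeletal muscle. The other muscle forms stood just above it. Cox6a2, the heart and muscle form of subunit VIa, was 5.19, 5.20 and 5.22 in TLR3wt and 5.04, 5 and 5 in TLR3-/- livers, with TLR3-/- replicates 2 and 3 at the floor. The groups did not overlap, and the difference of -0.19 ± 0.05 (SE), which the floor understates, did not pass in limma (adjusted p = 0.187; unadjusted p = 0.00770). Cox7a1, the muscle form of subunit VIIa, was 5.12, 5.14 and 5 in TLR3wt livers and at the floor in all 3 TLR3-/- livers. Its difference was -0.09 (limma adjusted p = 0.548), of a size that is not bounded because both groups held floor values. Beside these 2 genes, 10 of 12 skeletal muscle markers were at the floor on all arrays, Ckm, Mb and the myosins Myh1, Myh2 and Myh4 among them. The other 2, Acta1 and Tnni2, had a summed log2 signal of 10.14 to 10.26 on the TLR3-/- arrays and 10.20 to 10.35 on the TLR3wt arrays. Their part in the low Cox6a2 and Cox7a1 signals was not tested.

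The tissue forms are where a promoter can be set beside forms above and at or near the floor. The upstream sequences of the pairs Cox6b1 and Cox6b2, Cox7a2 and Cox7a1, Cox7b and Cox7b2, and Cox8a and Cox8b are therefore printed here, with Cox6a1, whose partner Cox6a2 has no entry in the table. They are the 250 bases before the start of each gene, 5′ to 3′ on the gene's strand, from RefSeq, build GRCm38.p6. Capitals mark matches to an NRF1 motif (the palindrome that opens at base -162 of Cox6a1, counted back from the start), a GABPA motif (CCGGAAG), an SP1 GC box (GGGCGG), each on either strand, and a TATA box (TATAAA) on the gene strand.
Cox6a1 chr5:115348959-115349208, minus strand: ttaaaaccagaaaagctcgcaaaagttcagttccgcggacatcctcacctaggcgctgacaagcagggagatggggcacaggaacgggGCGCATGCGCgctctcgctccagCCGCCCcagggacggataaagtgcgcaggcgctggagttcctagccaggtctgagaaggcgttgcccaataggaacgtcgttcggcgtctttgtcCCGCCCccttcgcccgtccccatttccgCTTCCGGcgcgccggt
Cox6b1 chr7:30626115-30626364, minus strand: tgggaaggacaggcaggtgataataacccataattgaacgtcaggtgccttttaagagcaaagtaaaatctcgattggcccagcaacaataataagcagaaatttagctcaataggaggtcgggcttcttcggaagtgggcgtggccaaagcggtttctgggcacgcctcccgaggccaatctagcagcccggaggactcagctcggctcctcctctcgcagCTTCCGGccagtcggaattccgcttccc
Cox6b2 chr7:4753095-4753344, minus strand: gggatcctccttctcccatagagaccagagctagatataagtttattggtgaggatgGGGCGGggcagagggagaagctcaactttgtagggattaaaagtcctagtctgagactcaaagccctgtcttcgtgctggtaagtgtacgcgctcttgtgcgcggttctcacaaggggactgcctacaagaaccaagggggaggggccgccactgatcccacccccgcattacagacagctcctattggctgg
Cox7a2 chr9:79759854-79760103, minus strand: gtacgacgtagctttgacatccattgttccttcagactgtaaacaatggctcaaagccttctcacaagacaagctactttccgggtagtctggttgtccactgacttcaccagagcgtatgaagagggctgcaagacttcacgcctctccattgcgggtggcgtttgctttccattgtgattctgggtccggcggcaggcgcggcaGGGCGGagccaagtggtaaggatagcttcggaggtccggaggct
Cox7a1 chr7:30183921-30184170, plus strand: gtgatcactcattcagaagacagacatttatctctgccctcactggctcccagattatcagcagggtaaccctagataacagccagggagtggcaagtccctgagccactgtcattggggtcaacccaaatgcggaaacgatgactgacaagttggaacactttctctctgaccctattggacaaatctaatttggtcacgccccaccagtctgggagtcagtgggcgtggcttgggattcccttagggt
Cox7b chrX:106015450-106015699, plus strand: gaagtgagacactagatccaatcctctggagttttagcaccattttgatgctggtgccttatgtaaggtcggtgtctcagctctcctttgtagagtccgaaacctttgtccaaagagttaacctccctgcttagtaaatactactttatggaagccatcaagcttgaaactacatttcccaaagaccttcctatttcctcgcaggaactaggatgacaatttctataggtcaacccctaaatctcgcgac
Cox7b2 chr5:71548206-71548455, minus strand: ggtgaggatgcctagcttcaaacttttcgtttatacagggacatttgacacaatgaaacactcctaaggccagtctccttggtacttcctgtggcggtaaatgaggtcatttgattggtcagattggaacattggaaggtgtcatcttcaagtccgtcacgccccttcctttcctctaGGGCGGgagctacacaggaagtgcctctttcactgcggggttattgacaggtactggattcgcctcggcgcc
Cox8a chr19:7217617-7217866, minus strand: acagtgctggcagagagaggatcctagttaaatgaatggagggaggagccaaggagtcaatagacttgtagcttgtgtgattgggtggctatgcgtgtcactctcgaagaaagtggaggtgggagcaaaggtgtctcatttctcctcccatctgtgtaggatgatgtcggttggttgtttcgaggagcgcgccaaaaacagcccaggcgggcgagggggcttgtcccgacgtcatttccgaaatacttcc
Cox8b chr7:140900447-140900696, minus strand: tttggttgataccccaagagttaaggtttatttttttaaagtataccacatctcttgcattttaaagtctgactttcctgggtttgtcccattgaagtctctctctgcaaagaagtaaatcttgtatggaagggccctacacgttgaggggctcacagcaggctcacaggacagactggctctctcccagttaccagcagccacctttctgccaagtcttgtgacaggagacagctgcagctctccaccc
Cox6a1 held 1 NRF1 match, 1 GABPA match and 2 GC boxes, Cox6b1 held 1 GABPA match and Cox7a2 held 1 GC box, while Cox7b and Cox8a, also above the floor on every array, held none of the 4 motifs. Of the forms at or near the floor, Cox6b2 and Cox7b2 held 1 GC box each, and Cox7a1 and Cox8b held none. CpG dinucleotides numbered 26 in Cox6a1, 14 in Cox6b1, 14 in Cox7a2, 5 in Cox7b and 11 in Cox8a. In the forms at or near the floor they numbered 8 in Cox6b2, 4 in Cox7a1, 9 in Cox7b2 and 1 in Cox8b. The form above the floor had more of them in 3 of the 4 pairs and fewer in Cox7b and Cox7b2, so motifs and CpG number did not separate the forms. Promoters were found for 74 of the 91 members, and those of Cox6a2, Cox4i1, Cox4i2, Cox8c and Ndufb9 were among the 17 not in the table.

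Over the 75 promoters of 70 tested members, 6.67% held the NRF1 motif, where 0.782% of all 32851 promoters did, and 17.3% held the GABPA motif, where 6.91% of all did. The 5 members with the NRF1 motif were Ndufa11, Ndufaf4, Cox6a1, Atp5g2 and Atp5k. The GC box was in 36% of the members' promoters and in 32.7% of all, and the TATA box in 2.67% and 7.59%. A member promoter held a median of 15 CpG dinucleotides against 6 for a promoter of the whole table. These are counts of letters in a fixed window and say nothing of whether a factor was bound.

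The remaining subunits of complex IV were close between the groups. Cox4i1 had a difference of 0.08 with a 95% interval from -0.07 to 0.22. Cox5b, a zinc-binding subunit, and Cox5a had differences of 0.03 and -0.01. Ndufa4, named for complex I but a subunit of complex IV, was 11.12, 11.14 and 11.12 in TLR3wt and 11.14, 11.01 and 11.13 in TLR3-/- livers. Cox8a was 8.33, 8.65 and 8.66 against 8.72, 8.60 and 8.59, where TLR3wt replicate 1 was the low array and the groups otherwise coincided (limma adjusted p = 0.735). Cox7a2l, known as a supercomplex factor, was 8.28 ± 0.17 in TLR3-/- and 8.19 ± 0.04 in TLR3wt livers (SD, n = 3 each).

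Complex V combines a catalytic head, a rotor and a peripheral stalk. Atp5a1, the alpha subunit, was 11.30, 11.26 and 11.17 in TLR3wt and 11.25, 11.22 and 11.24 in TLR3-/- livers, and Atp5b, the beta subunit that forms ATP, was 11.43, 11.48 and 11.40 against 11.44, 11.37 and 11.43. Their differences were -0.01 and -0.02, with 95% intervals from -0.15 to 0.13 and from -0.15 to 0.11. Atp5d, the delta subunit of the rotor stalk, was 10.38, 10.43 and 10.36 in TLR3wt and 10.51, 10.47 and 10.54 in TLR3-/- livers. Its groups did not overlap, and the difference of 0.12 ± 0.05 (SE) did not pass (limma adjusted p = 0.377). Atp5k, a membrane subunit, was 7.57, 7.55 and 7.51 against 7.58, 7.57 and 7.61, so that TLR3wt replicate 1 and TLR3-/- replicate 2 nearly met (difference 0.04, limma adjusted p = 0.748).

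The c ring of ATP synthase, which turns as protons pass, is made from 3 genes that encode the same mature protein. Atp5g1 was 8.61, 8.67 and 8.79 in TLR3wt and 8.67, 8.44 and 8.64 in TLR3-/- livers, a difference of -0.10. Atp5g2 was 9.47, 9.50 and 9.59 against 9.69, 9.57 and 9.55, a difference of 0.09, and Atp5g3 differed by 0.02. The 3 genes thus lay on both sides of 0, and none passed (limma adjusted p = 0.640, 0.603 and 0.908). Atp5h, a subunit of the peripheral stalk, had a difference of 0.10 on the probe set used and of 0.15 and 0.21 on its other 2 probe sets, where the groups were apart (limma adjusted p = 0.309 and 0.207). In all, 18 members had more than 1 tested probe set, and the differences of a gene's probe sets spread by at most 0.11 (Cox7a2l, with 0.09 on the probe set used and 0.21 on the other). On that other probe set and on the second of Ndufb11 (difference 0.12) the groups were apart (limma adjusted p = 0.314 and 0.343). They were not apart on the second of Ndufc1. The number of genes apart thus rests in part on the probe set choice. The probe sets of most of these genes had differences of 1 sign. The differences had unlike signs for Atp5pb, Cox7b and Ndufab1, with intervals that included 0. Several of these genes have near-identical processed copies in the genome, and signal from a gene and from such copies cannot be told apart on these probe sets.

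The subunits also differed together from mouse to mouse. Relative to the TLR3wt mean of each gene, the median over the 84 genes was 0.04, 0.02 and -0.05 in TLR3wt replicates 1 to 3 and 0.09, -0.02 and 0.03 in TLR3-/- replicates 1 to 3 (log2). TLR3wt replicate 3 was the lowest array of the 6 and TLR3-/- replicate 1 the highest, and the groups overlapped. Over all tested probe sets the same medians were 0.01, -0.00, -0.00, 0.03, 0.02 and 0.01. TLR3wt replicate 3 was the lowest of the TLR3wt livers for 59 of the 84 genes (70.2%), against 33.8% of all tested probe sets and 38.9% of those with a mean signal of at least 8. TLR3-/- replicate 1 was the highest of its group for 56 genes (66.7%). The share was 39.8% over all tested probe sets and 45.6% over those with a mean signal of at least 8. TLR3-/- replicate 2 was the lowest of its group for 52 genes (61.9%), against 29.5% and 32.7%. By complex, TLR3wt replicate 3 was lowest of its group for 24 of 34 genes in complex I, 3 of 4 in complex II, 6 of 9 in complex III, 8 of 12 in complex IV and 12 of 17 in complex V. Some other lists had similar shares. TLR3wt replicate 3 was the lowest of its group for 14 of 17 genes listed with the tricarboxylic acid cycle (82.4%) and 15 of 20 mitochondrial carriers and membrane proteins (75%). TLR3-/- replicate 2 was the lowest for 16 of 18 macrophage markers (88.9%) and 8 of 10 endothelial markers (80%). Further lists had lower shares than the members. TLR3wt replicate 3 was lowest for 47.3% of mitochondrial ribosomal genes, 52.8% of assembly factors and 33.3% of regulators. For TLR3-/- replicate 2 these shares were 33.8%, 25% and 20%. Of the macrophage markers, 5.56% were lowest in TLR3wt replicate 3 within its group. The genes share the arrays, so these counts describe 6 livers and carry no test, and the part of the cell type markers in them was not tested. Without TLR3wt replicate 3, 39 of the 84 differences were above 0 and the median was -0.00. Without TLR3-/- replicate 2, 65 were above 0 and the median was 0.05.

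**Figure D4:**
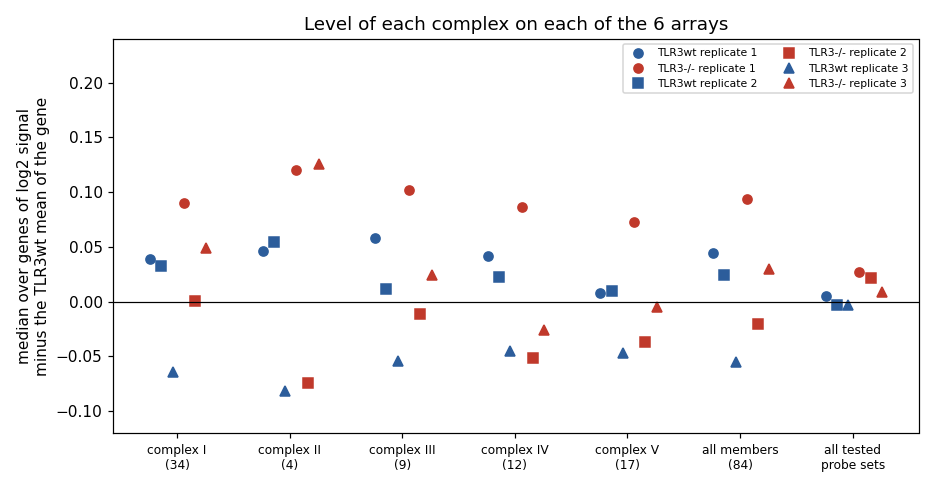
For each complex, the median over its genes of the log2 signal minus the gene's TLR3wt mean (y axis), drawn for each of the 6 arrays, with all 84 members and all tested probe sets at the right. TLR3wt replicate 3 (blue triangles) is the lowest TLR3wt array and TLR3-/- replicate 2 (red squares) the lowest TLR3-/- array in all 5 complexes.

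Mitochondrially encoded subunits could be followed through mt-Co2 and mt-Nd3 among 13 listed. mt-Co2, a catalytic subunit of complex IV, was 12.47, 12.31 and 12.35 in TLR3wt and 12.41, 12.49 and 12.41 in TLR3-/- livers, and mt-Nd3, of the membrane arm of complex I, was 11.55, 11.45 and 11.55 against 11.55, 11.59 and 11.50. Their differences were 0.06 and 0.03 (limma adjusted p = 0.736 and 0.851), and 1 of the 2 was below 0 with the arrays centred. Both were highest in TLR3-/- replicate 2, the liver in which most nuclear-encoded subunits were lowest in their group.

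Other genes that serve the chain were examined by lists. Of 36 measured assembly factors of complexes I to V outside the members, 31 had a difference above 0, with a median of 0.09, and 27 were above 0 under each of the other scalings (median 0.06). None passed limma's adjusted p (smallest 0.188), and 4 had an unadjusted p under 0.05, a smaller share than the 14.5% of all tested probe sets. Surf1, an assembly factor of complex IV, was 8.01, 8.04 and 7.99 in TLR3wt and 8.23, 8.17 and 8.23 in TLR3-/- livers, a difference of 0.20 with groups apart (limma adjusted p = 0.188). Cox10, which makes heme A precursor for complex IV, differed by -0.16, and Acad9 and Tmem126b, both of complex I assembly, by 0.22 each. Of 15 regulators of respiratory gene transcription and of mitochondrial DNA, 11 were above 0 (median 0.12; 10 and 11 under the other scalings), and 0 passed in limma, with 4 of the 15 at an unadjusted p under 0.05, a larger share than over all tested probe sets. Ssbp1, which binds single-stranded mitochondrial DNA, was 7.64, 7.40 and 7.60 against 7.90, 7.87 and 7.83 (difference 0.32, limma adjusted p = 0.172). Gabpb1, a partner subunit of GABPA, and the coactivator gene Ppargc1b differed by 0.30 and 0.23, and Tfb2m, a factor of mitochondrial transcription, by 0.22. The regulators named here were all higher, while the differences of the 15 ran from -0.28 to 0.32, with 4 below 0.

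Genes of the mitochondrial ribosome, which translates the mitochondrially encoded subunits, were above 0 for 56 of 74 (median 0.07; 46 and 47 under the other scalings). None passed limma's adjusted p, and 7 of the 74 had an unadjusted p under 0.05, again a smaller share than the 14.5% of all tested probe sets. The smallest p values belonged to Mrpl4, Mrpl23 and Mrpl36, with differences of 0.19, 0.21 and 0.29 (limma adjusted p = 0.192, 0.252 and 0.287). Of 20 carriers and membrane proteins 16 were above 0 (14 and 15 under the other scalings), and 0 passed in limma. An unadjusted p under 0.05 was found for 1, a smaller share than over all tested probe sets. It was Opa1, a fusion protein of the inner membrane (difference 0.18). Vdac3 and Slc25a10 differed by 0.15 and 0.27. Genes listed with the tricarboxylic acid cycle, which feeds the chain, were above 0 for 11 of 17 (7 and 8 under the other scalings). The list also names Pdha1, Pdhb and Dlat of the pyruvate dehydrogenase complex and Pcx, pyruvate carboxylase. In limma 0 passed and 2 had an unadjusted p under 0.05, a smaller share than over all tested probe sets. These were Fh1, fumarase (difference -0.21), and Mdh2, mitochondrial malate dehydrogenase (-0.13), and Pdha1 of the pyruvate dehydrogenase complex differed by 0.21. Whether any of these lists differed from the respiratory chain genes was not tested.

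**Figure D5:**
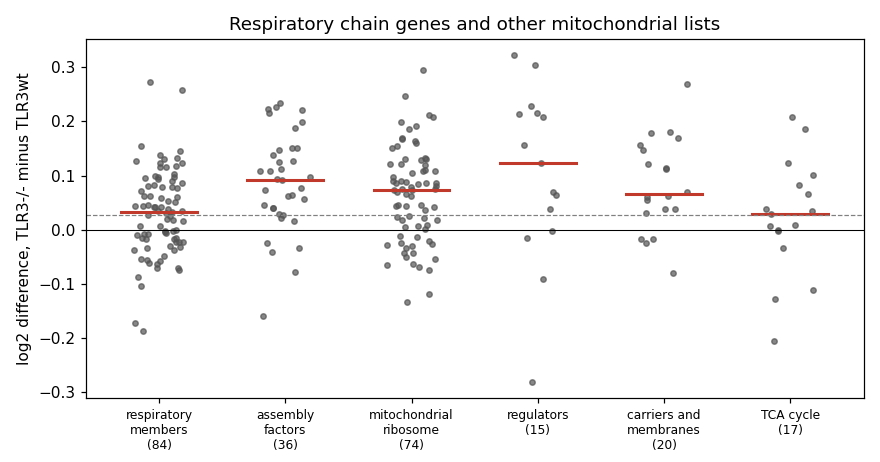
Log2 difference, TLR3-/- minus TLR3wt (y axis), of each measured gene in 6 lists (x axis, number of genes in brackets), with the list median as a red bar and the median of all tested probe sets as a dashed line. The list medians run from 0.03 (respiratory members and TCA cycle) to 0.12 (regulators), and the points of every list lie on both sides of 0.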

How the data were processed

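Liver RNA of 3 TLR3-/- and 3 TLR3wt mice was hybridised to 1 array each. The authors deposited log2 values. Per the submitters' processing notes, the tools were RMA and Affymetrix Expression Console. RMA corrects background, normalises by quantiles and summarises probes. The sources used here do not give the origin of the floor of 5, where 57.2% to 57.6% of an array's values stood. A difference is understated where values of 1 group alone stood at it, and its size is not bounded where values of both groups did. Groups came from the sample titles, and the design text gives 3 mice per group. The table held 0 columns of other samples.

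Of 35557 probe sets, the 16639 above the floor on at least 1 array were fitted with limma 3.58.1 in R 4.3.3 (group as the only term, eBayes defaults, two-sided, Benjamini-Hochberg adjustment over all of them, threshold 0.05). Members and lists were chosen with earlier results of these data known. The text names up to 4 members per group with the smallest unadjusted p, those at the floor in a single group, tissue isoform pairs and 3 genes per list with the smallest p. Tmem126b, Tfb2m, the hepatocyte markers and other members were named after their values were seen. The fit was tested on simulated data. Alternatives covered filters, scaling, variance estimation, the probe set choice, a replicate block and leaving out each mouse.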

Additional observations from a re-analysis of the deposited data

How the results depend on the processing

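No member passed limma's adjusted p under any of the 15 alternatives (smallest 0.158, with probe sets of 1 symbol alone), and 1 to 5 had an unadjusted p under 0.05. In the reported fit, 14.5% of all tested probe sets had such an unadjusted limma p. Over all probe sets, 31 passed in the reported fit. That number was 0 with all probe sets in the fit, 18 with those above 5 on all 6 arrays, 9 after quantile normalisation again, 14 after centring and 1 with probe sets of 1 symbol alone, and 0 to 12 when a mouse was left out (12 without TLR3wt replicate 3, 1 without TLR3-/- replicate 2, 0 without any other). The cause was not tested. With 1 mouse left out, the median log2 difference ranged from -0.055 (without TLR3-/- replicate 1) to 0.030 for complex IV. The medians of the other complexes and of all members moved by less than the spread between arrays under the alternatives run. Of 33 named members followed over the alternatives, 25 kept their sign in all of them, and 12 of 490 values changed sign, each without passing.

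Mice with the same number did not deviate together (correlations 0.05, -0.01 and -0.06 for replicates 1 to 3), and 1 of 6 arrays correlated best with its own number in the other group. No pairing by number was thus seen, and 3 arrays per group are too few to exclude one. With the replicate number as a block, 4 probe sets passed and 0 members did.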
